A study of Mus musculus with 6 samples.

Results

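The expression of 10 marker genes of neutrophils and macrophages was examined in polyps of the small intestine from *Apc* Min mice with and without depletion of Paneth cells (PCs). The genes were chosen by name, as 4 genes of neutrophils (*S100a8*, *S100a9*, *Csf3r* and *Il1b*) and 6 genes of macrophages (*Itgam*, *Adgre1*, *Csf1r*, *Cd68*, *Mrc1* and *C1qa*), among 48440 genes in the tables. All 10 were found, in 11 entries, because a second entry also carried the name *Itgam*. All 10 also had a mean FPKM (fragments per kilobase, relative to the size of the library) of at least 1 over the 6 libraries, and so were among the 14240 genes tested.

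Neutrophils are short-lived phagocytes that leave the blood in response to chemokines and cytokines and enter inflamed or damaged tissue. Macrophages of the intestinal wall are replenished largely from blood monocytes, depend on signaling through the receptor for colony stimulating factor 1, and clear dying cells and microbes. Both cell types infiltrate intestinal tumors, and several of their markers are shared with monocytes and other myeloid cells.

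The RNA came from adenoma polyps of mice on a C57BL/6 background, older than 42 days, with 3 libraries of *Apc* Min, WT (QC4, QC5 and QC6) and 3 of *Apc* Min, PC del (QC3, QC8 and QC10). Both groups carried the *Apc* Min allele and the Rosa26-iDTA allele, which holds the coding sequence of the diphtheria toxin α-subunit (DTA) behind a floxed stop. The PC del mice also carried *Defa4-Cre*, a knock-in allele made in stem cells of strain 129/svJ that ties Cre to the expression of *Defa4*, so that DTA is made in cells of the PC lineage; their controls were littermates without Cre. The comparison asked whether the phagocyte genes of the adenoma differed when PCs were depleted. The labels do not say that each library came from a separate animal, so the p-values measure only the spread between these samples, which may be technical. The libraries were made from whole tissue, in which fewer cells of a type and less RNA per cell cannot be told apart.

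The aligned sequence behind a library, taken from the ratio of coverage to FPKM, was between 5.41 gigabases (QC3) and 5.88 gigabases (QC10). All 7 epithelial markers were detected in every library, led by *Krt8* with a mean of 2270 FPKM, and so were all 8 Wnt target genes of adenoma cells, led by *Notum* with a mean of 59.2 FPKM. The PC defensin *Defa21* measured 129, 352 and 241 FPKM in QC4, QC5 and QC6, and 35.4, 20.2 and 28.0 FPKM in QC3, QC8 and QC10. Its log2 fold change was -2.98 (limma adjusted p = 0.309), that of *Defa22* was -2.77 (limma adjusted p = 0.309) and that of the lysozyme gene *Lyz1* was -0.95 (limma adjusted p = 0.978). None of the 3 passed the adjusted threshold, although for each of them all PC del values were below all WT values. Without QC4, *Defa22* passed it.

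The WT library QC6 stood apart from the other 5. Array quality weighting gave it a weight of 0.237, against 0.634 to 3.09 for the others, and its median log2 ratio to the mean library was -0.13, against 0.00 to 0.03. The 7 enterocyte genes summed to 24600 FPKM in QC6 and to between 8960 and 14700 FPKM elsewhere. The 7 genes of blood cells, led by the hemoglobin genes *Hbb-bs*, *Hba-a2* and *Hba-a1*, summed to 1940 FPKM in QC6 and to between 216 and 937 FPKM elsewhere. The sum of the 7 epithelial markers was lowest in QC6, at 4310 FPKM against 4990 to 6210 FPKM, although *Vil1* and *Cdx2*, named after their values were seen, were not lowest there. Values without QC6 are therefore given for the 10 phagocyte genes and for the medians of lists, and what set this library apart was not tested.

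Across the whole transcriptome, 2 of 14240 genes passed a Benjamini-Hochberg adjusted p of 0.05, which is 0.0140% of the genes tested, and 0 of the 10 phagocyte genes were among them. The 2 genes, named after their values were seen, were the histone gene *Hist2h2aa1* (log2 fold change 3.77, limma adjusted p = 0.00132) and *Rab43* (log2 fold change -2.37, limma adjusted p = 0.0108). *Hist2h2aa1* measured 0.0103, 0 and 0 FPKM in QC4, QC5 and QC6, and 10.5, 12.1 and 15.9 FPKM in QC3, QC8 and QC10. *Rab43* measured 29.4, 27.1 and 36.6 FPKM in the former and 5.41, 4.35 and 5.74 FPKM in the latter. Sequence shared with other genes was not counted for either, so how reads were assigned to them was not tested. At an unadjusted limma p under 0.05, 384 genes (2.70%) were higher in PC del and 97 (0.681%) were lower. Of the 10 phagocyte genes, 1 was among those higher, the macrophage gene *Adgre1*, and 0 were among those lower. The groups did not overlap for 854 genes higher in PC del (6.00%) and 219 lower (1.54%), and again *Adgre1* was the 1 phagocyte gene among the former and 0 were among the latter.

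The excess of higher over lower genes depended on the scaling and on QC6. Of the 481 genes at an unadjusted p under 0.05, 79.8% were higher in PC del. This share was 61.4% of 451 with each library centred on its median, 58.9% of 443 with quantile normalization and 59.4% of 820 without QC6 (487 higher and 333 lower), but 88.7% of 661 with TPM. For genes whose groups did not overlap, the share higher in PC del was 79.6%, against 51.3% after centring, 52.8% with quantile normalization, 48.0% without QC6 (1617 higher and 1753 lower) and 92.5% with TPM.

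The neutrophil genes varied several-fold between libraries, and this variation did not follow the genotype. All 4 had their 3 highest values in QC3, QC4 and QC8, of which QC4 is WT and the others PC del, and all 4 had their 2 lowest values in QC6 and QC10, of which QC6 is WT. The highest value exceeded the lowest 7.72-fold for *S100a8*, 6.50-fold for *S100a9*, 4.74-fold for *Csf3r* and 4-fold for *Il1b*. The macrophage genes were flatter, with ratios between 1.40 (*C1qa*) and 2.36 (*Mrc1*), and 0 of the 6 had QC3, QC4 and QC8 as their 3 highest libraries.

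**Figure D1:**
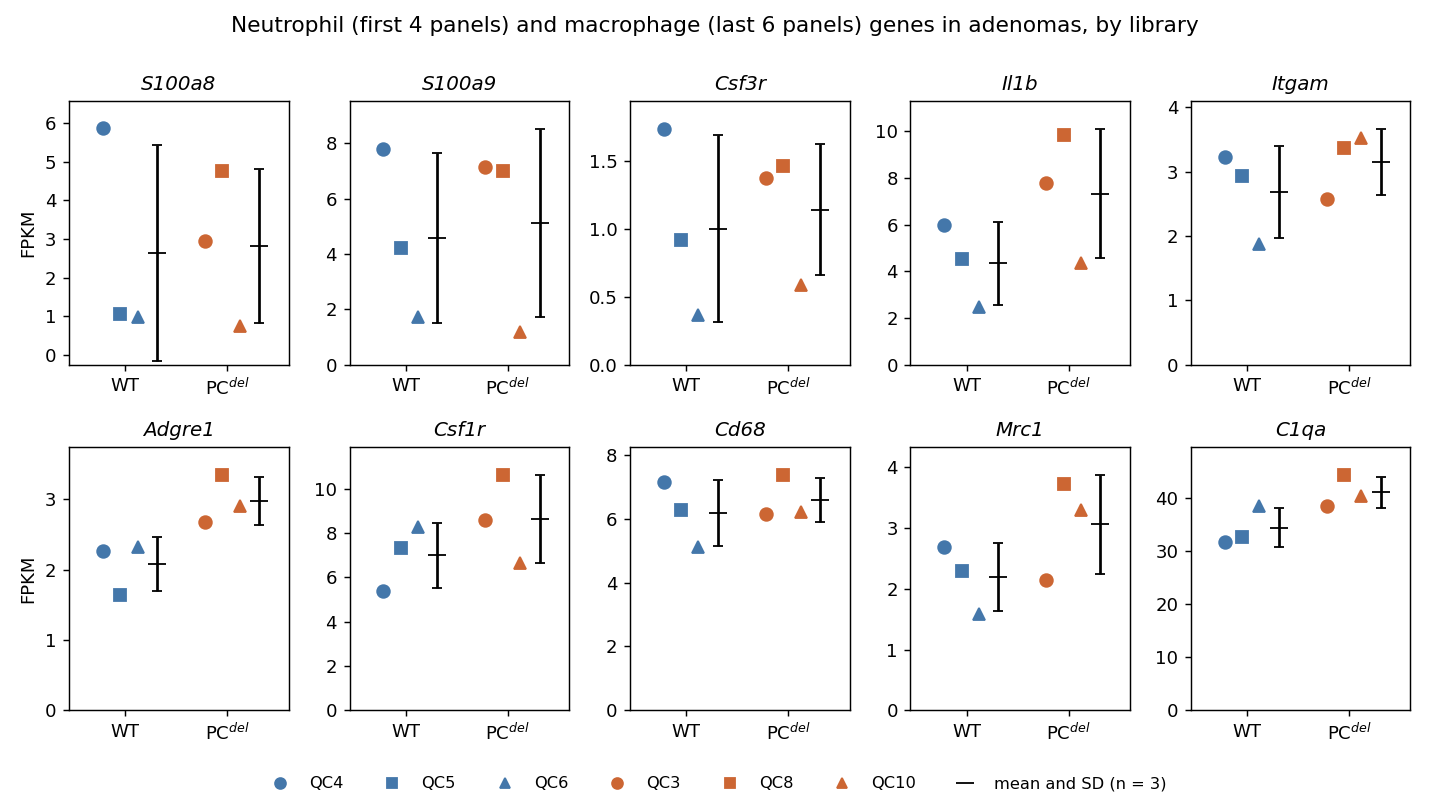
FPKM of each phagocyte gene (y axis) in each library, WT in blue and PC del in orange, with the mean and SD of the 3 libraries of a group in black. The neutrophil genes are low in QC6 and QC10 and high in QC4, QC3 and QC8, while *Adgre1* is the gene whose groups do not overlap, although they do after median centring or quantile normalization, and *C1qa* also separates with TPM.

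*S100a8* encodes one subunit of calprotectin, the calcium- and metal-binding complex that fills the neutrophil cytosol. It measured 5.87, 1.05 and 0.982 FPKM in QC4, QC5 and QC6 (WT), and 2.95, 4.75 and 0.760 FPKM in QC3, QC8 and QC10 (PC del). The group means were 2.63 ± 2.8 FPKM in WT and 2.82 ± 2 FPKM in PC del (SD, n = 3). A WT library was the highest of the 6 and a PC del library the lowest, and the groups overlapped between 0.982 and 4.75 FPKM. The mean coverage behind the low values was 4.19, 3.99 and 3.16 reads per base in QC5, QC6 and QC10, which limits their precision. The log2 fold change of FPKM + 1, PC del over WT, was 0.17 (SE 0.61, 95% interval -1.28 to 1.62), with a limma adjusted p of 1 and an exact two-sided permutation p of 1, where the smallest p that 3 against 3 libraries allow is 0.1. Leaving out a single library moved this value between -0.20 and 0.76. It was below 0 without QC5 (-0.11), without QC6 (-0.13) and without QC8 (-0.20).

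*S100a9* encodes the other calprotectin subunit. Its FPKM was 7.79, 4.21 and 1.71 in QC4, QC5 and QC6, and 7.13, 7.01 and 1.20 in QC3, QC8 and QC10. The means were 4.57 ± 3.06 FPKM in WT and 5.11 ± 3.39 FPKM in PC del (SD, n = 3). QC10 was again the lowest and QC4 the highest, and the spread within each group was larger than the distance between the means. The log2 fold change was 0.07 (SE 0.62, 95% interval -1.42 to 1.55, limma adjusted p = 1), and the exact permutation p was 1. It was below 0 without QC6 (-0.37), without QC3 (-0.25) and without QC8 (-0.24). The ratio of *S100a9* to *S100a8* in FPKM was between 1.33 and 2.42 in 5 libraries and 4.01 in QC5, where *S100a8* was low and *S100a9* intermediate.

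*Csf3r* encodes the receptor for granulocyte colony stimulating factor, which drives the production and survival of neutrophils. It was the least abundant of the 10 genes, with 1.73, 0.917 and 0.365 FPKM in QC4, QC5 and QC6, and 1.37, 1.46 and 0.585 FPKM in QC3, QC8 and QC10. The mean coverage behind these values was low, from 2 reads per base in QC6 to 6.92 in QC8, which limits their precision. The order of the libraries was close to that of *S100a8*, with QC4 highest and QC6 lowest. Its log2 fold change was 0.12 (SE 0.29, 95% interval -0.57 to 0.82, limma adjusted p = 1; exact permutation p = 0.7), and -0.13 without QC6.

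*Il1b* encodes interleukin 1β, an inflammatory cytokine that neutrophils, monocytes and macrophages all make. It measured 6.01, 4.55 and 2.46 FPKM in QC4, QC5 and QC6, and 7.79, 9.84 and 4.37 FPKM in QC3, QC8 and QC10. The means were 4.34 ± 1.79 FPKM in WT and 7.33 ± 2.76 FPKM in PC del (SD, n = 3), the largest ratio of means among the 10 genes (1.69). Unlike the other 3 neutrophil genes, *Il1b* was highest in a PC del library, QC8, but QC10 lay below QC4 and QC5, so the groups overlapped. The log2 fold change was 0.64 (SE 0.34, 95% interval -0.17 to 1.45, limma adjusted p = 1), with an exact permutation p of 0.3. It stayed above 0 with each library left out, between 0.36 without QC6 and 0.93 without QC10. Without QC10 the groups did not overlap and the unadjusted p was under 0.05.

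Among the macrophage genes, *Adgre1*, which encodes the surface protein F4/80, was the one whose genotypes separated. It measured 2.26, 1.64 and 2.33 FPKM in QC4, QC5 and QC6, and 2.68, 3.35 and 2.91 FPKM in QC3, QC8 and QC10. The means were 2.08 ± 0.379 FPKM in WT and 2.98 ± 0.340 FPKM in PC del (SD, n = 3). Every PC del library was above every WT library, with the smallest gap between QC6 and QC3. The log2 fold change was 0.38 (SE 0.14, 95% interval 0.05 to 0.70), with an unadjusted limma p of 0.0287, a limma adjusted p of 1 and an exact permutation p of 0.1, the smallest possible. The value was 0.44 without QC6. The unadjusted p was above 0.05 without QC5 (log2 fold change 0.27), without QC8 (0.31) and without QC10 (0.39). With each library centred on its median the log2 fold change was 0.33, and with quantile normalization it was 0.29. The groups overlapped and the unadjusted p was above 0.05 with either.

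*C1qa* encodes a chain of complement C1q, which in tissue is made mainly by macrophages, and was the most abundant of the 10 genes. It measured 31.8, 32.7 and 38.6 FPKM in QC4, QC5 and QC6, and 38.5, 44.4 and 40.4 FPKM in QC3, QC8 and QC10. QC6 lay just above QC3, so the groups overlapped by this single library. The means were 34.4 ± 3.70 FPKM in WT and 41.1 ± 2.97 FPKM in PC del (SD, n = 3), and the log2 fold change was 0.25 (SE 0.12, 95% interval -0.02 to 0.53). The limma adjusted p was 1 and the exact permutation p was 0.2. Without QC6 the log2 fold change was 0.34 and every remaining WT library was below every PC del library. With TPM in place of FPKM the groups of *C1qa* did not overlap and the log2 fold change was 0.32. Its unadjusted p was under 0.05 with TPM, with array quality weights, without a filter and without QC6, and the adjusted p over all its alternatives was between 0.427 and 1.

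*Csf1r*, the receptor on which macrophage survival depends, measured 5.37, 7.33 and 8.27 FPKM in QC4, QC5 and QC6, and 8.58, 10.6 and 6.66 FPKM in QC3, QC8 and QC10. Only QC10 of the PC del libraries lay within the WT range, and the log2 fold change was 0.26 (SE 0.20, limma adjusted p = 1; exact permutation p = 0.4). It was 0.38 without QC6, 0.11 without QC4, 0.12 without QC8 and 0.42 without QC10, where the groups did not overlap. *Mrc1* encodes the mannose receptor CD206, an endocytic receptor of resident macrophages, and ranged from 1.58 to 2.68 FPKM in WT and from 2.15 to 3.73 FPKM in PC del. Its log2 fold change was 0.34 (SE 0.20, limma adjusted p = 1; exact permutation p = 0.3). It was 0.20 without QC6, 0.22 without QC8 and 0.52 without QC3, where the groups did not overlap and the unadjusted p was under 0.05. *Cd68*, a lysosomal glycoprotein of phagocytes, ranged from 5.10 to 7.15 FPKM in WT and from 6.15 to 7.37 FPKM in PC del. With a log2 fold change of 0.09 (SE 0.14, limma adjusted p = 1; exact permutation p = 0.6) it was the macrophage gene with the smallest difference, and without QC6 the value was -0.03.

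*Itgam* encodes CD11b, the integrin chain that pairs with the product of *Itgb2* on neutrophils, monocytes and macrophages alike, so it marks both cell types. Summed over both entries it measured 3.23, 2.94 and 1.88 FPKM in QC4, QC5 and QC6, and 2.57, 3.37 and 3.52 FPKM in QC3, QC8 and QC10. Its log2 fold change was 0.19 (SE 0.18, limma adjusted p = 1; exact permutation p = 0.5). It was 0.02 without QC6, 0.12 without QC10 and 0.29 without QC3, where the groups did not overlap, or without QC4. The second entry spans 128062683 to 128128160 on chromosome 7, over the *Itgam* gene at 128062640 to 128118491 (GRCm38), and GENCODE names it *Gm49368*. It shared 67.2% of the 31-base words of *Itgam*, so reads can be assigned to either. It held 1.11 FPKM in QC6, 0.0026 FPKM in QC8 and 0 in the other 4 libraries, while the main entry was at 0.770 FPKM in QC6. With the main entry alone, an alternative chosen after seeing the data, the log2 fold change was 0.42.

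**Figure D2:**
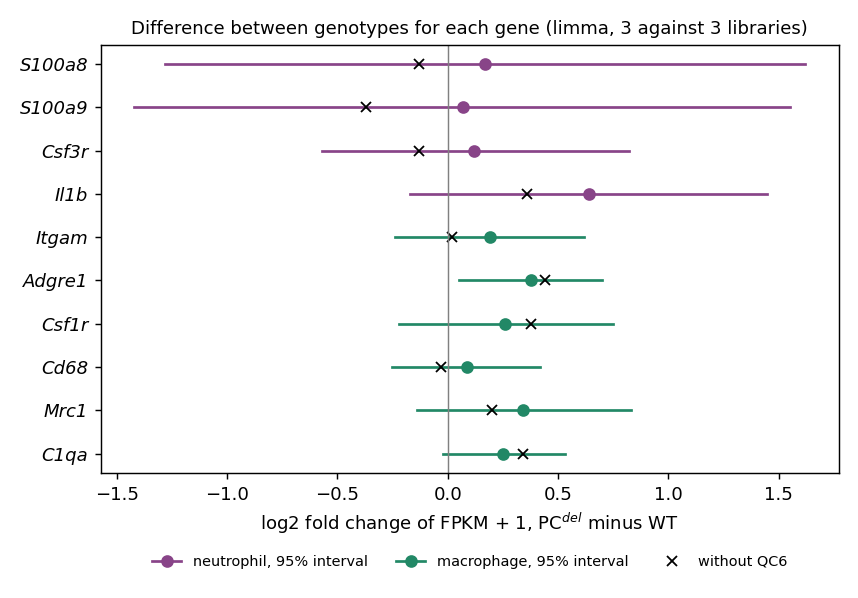
Log2 fold change of FPKM + 1 (x axis, PC del minus WT) of each gene with its 95% interval from limma, and the value without QC6 as a cross. The intervals of 9 genes include 0, that of *Adgre1* runs from 0.05 to 0.70, and 4 crosses (*S100a8*, *S100a9*, *Csf3r* and *Cd68*) lie below 0.

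Ordered by mean FPKM over the 6 libraries, the levels were 37.7 for *C1qa*, 7.81 for *Csf1r*, 6.38 for *Cd68*, 5.84 for *Il1b*, 4.84 for *S100a9*, 2.92 for *Itgam*, 2.73 for *S100a8*, 2.62 for *Mrc1*, 2.53 for *Adgre1* and 1.07 for *Csf3r*. The lowest value of *C1qa* was above the highest of *Csf1r*, and every other pair of neighbours in this order overlapped over the libraries. FPKM is scaled for length, so these are levels per length of transcript.

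Set against each other, the 4 neutrophil genes had a median log2 fold change of 0.15 and the 6 macrophage genes one of 0.26, beside a median of 0.04 over all 14240 genes tested. All 10 had a higher mean log2 level in PC del, as did 63.1% of all genes tested. The difference between the medians, neutrophil minus macrophage, was -0.11, smaller than its spread of 0.62 between libraries of a group. Without QC6 the medians were -0.13 and 0.27, beside 0.00 over all genes, and 6 of the 10 genes had a higher mean in PC del. The sign of the neutrophil median therefore rested on single libraries, since it was also below 0 without QC8 (-0.10), while it was 0.62 without QC4 and 0.67 without QC10. The difference between the medians was above 0 without QC4 (0.37) and without QC10 (0.39). The macrophage median lay between 0.17 and 0.29 whichever library was left out.

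Per library, the mean log2(FPKM + 1) of the 4 neutrophil genes was 2.54, 1.71 and 1.17 in QC4, QC5 and QC6, and 2.35, 2.56 and 1.26 in QC3, QC8 and QC10. That of the 6 macrophage genes was 2.73, 2.68 and 2.63 in QC4, QC5 and QC6, and 2.8, 3.10 and 2.90 in QC3, QC8 and QC10, so every PC del library was above every WT library in the macrophage mean. After median centring, chosen for this mean after seeing the data, the nearest libraries were QC6 at 2.76 and QC3 at 2.77. The mean of the 15 other macrophage genes tested did not separate (3.98 in QC6 and 3.97 in QC10), nor did that of the shared myeloid genes (3.27 in QC6 and 3.22 in QC10). The balance between the lists thus differed more within each genotype than between them. The neutrophil mean minus the macrophage mean was -0.19 in QC4 and -1.46 in QC6, both WT, and -0.45 in QC3 and -1.64 in QC10, both PC del. In FPKM, *S100a9* stood at 24.5% of *C1qa* in QC4 and at 2.97% in QC10.

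**Figure D3:**
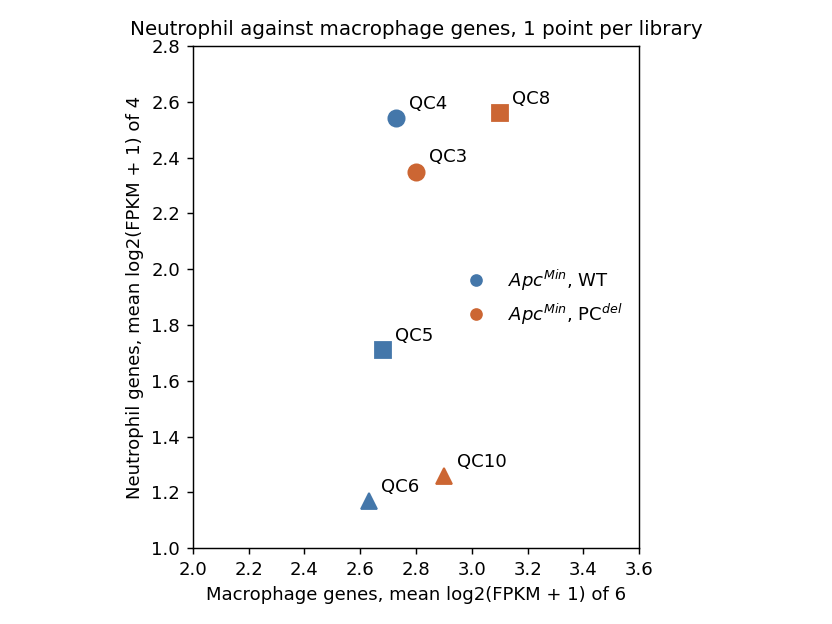
Mean log2(FPKM + 1) of the 4 neutrophil genes (y axis) against that of the 6 macrophage genes (x axis), 1 point per library, WT in blue and PC del in orange. The libraries spread from 1.17 to 2.56 along the y axis and from 2.63 to 3.10 along the x axis, and the genotypes are mixed along the y axis and apart along the x axis.

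A longer list of 26 other neutrophil genes was next examined. All 26 were in the tables, 19 were above 0 in every library and 9 passed the filter on low values. All 9 had a higher mean in PC del (63.1% of all genes tested), with a median log2 fold change of 0.39 (0.28 without QC6), 1 higher at an unadjusted p under 0.05 (2.70% of all genes) and 0 at an adjusted p under 0.05. That 1 gene was *Retnlg*, which encodes a resistin-like protein of neutrophils. It measured 5.13, 4.13 and 4.39 FPKM in QC4, QC5 and QC6, and 7.18, 9.40 and 7.19 FPKM in QC3, QC8 and QC10, with no overlap between the groups. The log2 fold change was 0.68 (SE 0.14, limma adjusted p = 0.978), and 0.66 without QC6. *Retnlg* shared 5.51% of its 31-base words with *Retnla*.

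The summed FPKM of the 26 genes was 155, 109 and 75.0 in QC4, QC5 and QC6, and 155, 187 and 115 in QC3, QC8 and QC10, so that QC6 was lowest here too but QC10 was above QC5. The 3 most abundant were *Lrg1* (mean 56.5 FPKM), *Ltf* (31.2 FPKM) and *Cd177* (10.9 FPKM), of which *Lrg1* is also made by epithelial cells, and their log2 fold changes were 0.26, 0.65 and 0.39. Without QC6 these were 0.01, 0.34 and -0.12. These 3 genes weigh most in the summed FPKM, and which cells made their RNA was not tested, so the sum is not a measure of neutrophils alone. *Ly6g*, the surface marker that defines mouse neutrophils, measured 2.27, 2.93 and 1.31 FPKM in QC4, QC5 and QC6, and 1.58, 7.50 and 3.89 FPKM in QC3, QC8 and QC10. It did not share the library order of *S100a8*: QC10 was its second highest library. With a wide spread, the log2 fold change was 0.62 (SE 0.43, limma adjusted p = 1), and it was 0.41 without QC6, 0.20 without QC8 and 1.06 without QC3. *Ly6g* shared 9.55% of its 31-base words with other genes (4.39% with *Ly6i*), so part of its reads can be assigned to them. The chemokine receptor gene *Cxcr2* was between 0.127 and 0.511 FPKM, *Mpo*, a granule gene of immature neutrophils, was at most 0.265 FPKM, and *Elane* was listed at 0 in all 6 libraries, as were *Camp* and *Ngp*, which were named after their values were seen.

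Of 24 other macrophage genes, 15 were tested, of which 11 had a higher and 4 a lower mean in PC del (63.1% and 36.9% of all genes tested). The median log2 fold change was 0.16 (0.27 without QC6). Of these 15, 3 were higher and 1 lower at an unadjusted p under 0.05 (2.70% and 0.681% of all genes tested), and 0 passed the adjusted threshold. The groups did not overlap for 4 genes higher in PC del and 1 lower (6.00% and 1.54% of all genes). The 4 were *C1qb* and *C1qc*, which encode the remaining chains of C1q, *Fcgr1*, which encodes the high-affinity IgG receptor, and *Cd14*, a co-receptor for lipopolysaccharide. The groups of *Adgre1* overlapped after median centring, and whether those of these 4 genes stay apart was not examined.

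*C1qb* measured 30.7, 29.3 and 36.8 FPKM in QC4, QC5 and QC6, and 40.5, 43.8 and 39.6 FPKM in QC3, QC8 and QC10 (log2 fold change 0.35, SE 0.12, limma adjusted p = 1). *C1qc* measured 23.3, 21.6 and 26.8 FPKM in QC4, QC5 and QC6, and 31.3, 35.1 and 29.5 FPKM in QC3, QC8 and QC10 (log2 fold change 0.41, SE 0.12, limma adjusted p = 1). The 3 C1q genes thus had the same 3 highest libraries except that QC6 edged out QC3 for *C1qa*. *Fcgr1* was between 1.13 and 1.26 FPKM in WT and between 1.90 and 2.41 FPKM in PC del (log2 fold change 0.48, SE 0.11, limma adjusted p = 1). *Cd14* was between 7.32 and 13.2 FPKM in WT and between 14.3 and 15.9 FPKM in PC del (log2 fold change 0.46, SE 0.21, limma adjusted p = 1). The lowest value of *Cd14* was in QC6, and without this library the log2 fold change was 0.22.

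The gene lower in PC del was *Lyz2*, the lysozyme gene of macrophages and the most abundant of the list, with 161, 198 and 189 FPKM in QC4, QC5 and QC6, and 144, 145 and 138 FPKM in QC3, QC8 and QC10. Its log2 fold change was -0.35 (SE 0.12, limma adjusted p = 1). *Lyz2* shared 32.8% of its 31-base words with the PC gene *Lyz1*, which measured 1670 to 2280 FPKM in WT and 950 to 1150 FPKM in PC del, so its value is uncertain. How much *Lyz1* contributed to it was not tested. The other most abundant genes, *Apoe* (mean 84.4 FPKM) and *Lgmn* (68.7 FPKM), had log2 fold changes of 0.07 and -0.03. With single libraries left out these ran from -0.05 to 0.19 and from -0.21 to 0.11. The summed FPKM of the 24 genes was nearly level, between 443 in QC3 and 497 in QC6.

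Markers of tissue-resident macrophages differed widely in level. *Maf*, *Lyve1* and *Mertk* were named after their values were seen. *Maf* and *Lyve1* had means of 12.8 and 4.78 FPKM. *Mertk* was at 39.2 FPKM in QC6 and between 9.66 and 15.8 FPKM elsewhere, with a log2 fold change of -0.03, and 0.61 without QC6. *Timd4* was between 0.229 and 0.944 FPKM, and of 2 genes named after their values were seen *Vsig4* was listed at 0 in all libraries and *Folr2* was listed at 0 in 5 of them. *Cd163*, a hemoglobin scavenger receptor, was at 0.0357, 0.122 and 0.295 FPKM in QC4, QC5 and QC6, and at 0.310, 0.535 and 0.471 FPKM in QC3, QC8 and QC10. *Siglec1* was between 0.0593 and 0.116 FPKM in WT and between 0.197 and 0.352 FPKM in PC del. Both were higher in every PC del library but below the level at which genes were tested.

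The 10 genes shared by myeloid cells in general were all tested. Of them, 9 had a higher and 1 a lower mean in PC del (63.1% and 36.9% of all genes tested). The median log2 fold change was 0.19 (0.25 without QC6), and 2 genes were higher at an unadjusted p under 0.05 (2.70% of all genes tested). *Cybb*, the catalytic subunit of the phagocyte oxidase, was between 2.83 and 3.37 FPKM in WT and between 3.76 and 4.88 FPKM in PC del (log2 fold change 0.38, limma adjusted p = 1). Whether the groups of *Cybb* stay apart after median centring was not examined. *Itgb2*, the partner of *Itgam*, had a log2 fold change of 0.35 (limma adjusted p = 1), with QC6 inside the PC del range. The most abundant were *Tyrobp* (mean 33.1 FPKM), *Fcer1g* (26.7 FPKM) and *Laptm5* (14.1 FPKM), with log2 fold changes of 0.16, 0.08 and 0.22. Omitting single libraries gave ranges of 0.07 to 0.23, 0.01 to 0.19 and 0.09 to 0.34.

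The ligands, receptors and signaling partners of the members were taken next, as a list of 19 genes of which 15 were tested. Of these, 11 had a higher and 4 a lower mean in PC del (63.1% and 36.9% of all genes tested). The median log2 fold change was 0.08 (0.13 without QC6), and 2 genes were higher at an unadjusted p under 0.05 (2.70% of all genes tested). *Il1a*, which encodes the other interleukin 1 agonist, measured 1.24, 1.16 and 1.02 FPKM in QC4, QC5 and QC6, and 2.03, 2.89 and 1.5 FPKM in QC3, QC8 and QC10. Its groups did not overlap, and its log2 fold change was 0.53 (SE 0.18, limma adjusted p = 1). *Il1r1*, the signaling receptor for both cytokines, was between 2.30 and 3.29 FPKM in WT and between 3.15 and 4.62 FPKM in PC del (log2 fold change 0.41, limma adjusted p = 1). The co-receptor *Il1rap*, the antagonist *Il1rn* and the decoy receptor *Il1r2* had log2 fold changes of 0.00, -0.05 and 0.08. Omitting single libraries gave ranges of -0.06 to 0.1, -0.34 to 0.26 and -0.02 to 0.19.

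Of the receptors for calprotectin, *Tlr4* had a log2 fold change of 0.49 (SE 0.29, limma adjusted p = 1; log2 fold change 0.21 without QC4) and *Ager* was at most 0.246 FPKM. *Csf3*, the ligand of *Csf3r*, was at most 0.384 FPKM, in QC8. Of the ligands of *Csf1r*, *Csf1* was between 2.98 and 3.69 FPKM in WT and between 4.02 and 4.35 FPKM in PC del, with no overlap (log2 fold change 0.24, SE 0.11, limma adjusted p = 1), and *Il34* had a log2 fold change of -0.19 (SE 0.13, limma adjusted p = 1). The most abundant genes of the list were *Gsdmd* (mean 130 FPKM), *Casp1* (63.2 FPKM) and *Pycard* (49.9 FPKM), which act in the inflammasome and whose levels lay far above that of *Il1b*. Their log2 fold changes were 0.08, 0.07 and 0.08. With single libraries left out they ran from -0.06 to 0.22, from -0.09 to 0.17 and from -0.17 to 0.22.

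Of 9 genes that attract or accompany neutrophils, 6 were tested, and all 6 had a higher mean in PC del (63.1% of all genes tested), with a median log2 fold change of 0.70 (0.55 without QC6), 3 higher at an unadjusted p under 0.05 (2.70% of all genes) and 0 at an adjusted p under 0.05. *Cxcl1*, a ligand of the receptor encoded by *Cxcr2*, measured 1.61, 1.63 and 1.21 FPKM in QC4, QC5 and QC6, and 3.87, 9.46 and 2.58 FPKM in QC3, QC8 and QC10. The groups did not overlap, and the log2 fold change was 1.20 (SE 0.37, limma adjusted p = 1), with 0.75 without QC8. *Cxcl3* had a log2 fold change of 0.74 (SE 0.30, limma adjusted p = 1), with QC3 and QC8 at 1.93 and 2.98 FPKM and QC10 at 0.742 FPKM, within the WT range, and was 0.47 without QC8. *Tnf* was between 1.07 and 1.17 FPKM in WT and between 1.38 and 2.74 FPKM in PC del (log2 fold change 0.46, SE 0.18, limma adjusted p = 1), and its log2 fold change was 0.29 without QC3.

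The most abundant of these genes were *Lcn2* (mean 41.5 FPKM), which epithelial cells also make, *Cxcl1* (3.40 FPKM) and *Cxcl5* (2.67 FPKM). The list summed to 52.1, 34.7 and 38.4 FPKM in QC4, QC5 and QC6, against 52.5, 90.2 and 49.6 FPKM in QC3, QC8 and QC10. QC4, the library with the most *S100a8*, had low *Cxcl1* (1.61 FPKM) and *Cxcl2* (0.779 FPKM, a gene named after its values were seen). Its *Cxcl3* (0.855 FPKM) and *Cxcl5* (2.28 FPKM) were the highest in WT, above QC10 but below QC3 and QC8. QC3 and QC8 were highest in these chemokines and were also high in the neutrophil genes. *Il17a* and *Il17f*, also named after their values were seen, were at or below 0.0730 FPKM.

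Lists of other cell types were compared in the same way, and by limma 0 of their 69 tested genes passed the adjusted threshold, while 3 were higher and 0 lower in PC del at an unadjusted p under 0.05 (2.70% and 0.681% of all genes tested). Among leukocytes, the median log2 fold change was 0.28 for 3 pan-leukocyte genes, 0.10 for the 3 tested of 11 monocyte and dendritic cell genes, 0.11 for the 2 tested of 7 eosinophil genes, 0.13 for the 6 tested of 8 T and NK cell genes, 0.04 for the 4 tested of 6 B and plasma cell genes and -0.62 for 7 mast cell genes. Without QC6 these medians were 0.43, 0.16, 0.45, 0.47, 0.23 and -0.50. The 3 most abundant genes were *Cd52*, *Coro1a* and *Ptprc* of the pan-leukocyte list, *Plac8*, *Ly6c2* and *Itgax* of monocytes and dendritic cells, and *Prg2*, *Siglecf* and *Ear2* of eosinophils. They were *Cd3g*, *Cd3e* and *Cd8a* of T and NK cells, *Jchain*, *Mzb1* and *Cd79a* of B and plasma cells, and *Mcpt1*, *Mcpt2* and *Cpa3* of mast cells. *Plac8*, at a mean of 1320 FPKM, is also made by intestinal epithelium. The eosinophil gene *Epx*, named after its values were seen, was listed at 0 in all libraries. *Xcr1*, a dendritic cell gene too low to be tested, was higher in every PC del library (0.185 to 0.268 FPKM in WT and 0.269 to 0.380 FPKM in PC del). The pan-leukocyte genes summed to between 48.9 FPKM (QC4) and 78.6 FPKM (QC3), so QC4, with the most *S100a8*, had the lowest sum. *Coro1a* alone was lowest in QC5, at 12.9 FPKM against 13.3 FPKM in QC4.

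The mast cell genes summed to 459, 986 and 835 FPKM in QC4, QC5 and QC6, against 986, 315 and 258 FPKM in QC3, QC8 and QC10, an order unlike that of the neutrophil genes. Of the 6 blood cell genes tested, 5 had a lower mean in PC del (36.9% of all genes tested) and the median log2 fold change was -1.09 (-0.60 without QC6). The exception was the platelet gene *Pf4*, with 4.52 to 4.71 FPKM in WT and 4.85 to 6.95 FPKM in PC del (log2 fold change 0.36, limma adjusted p = 1). The summed FPKM of the blood list was 929, 510 and 1940 in QC4, QC5 and QC6, and 937, 216 and 464 in QC3, QC8 and QC10. The part of blood in the neutrophil values was not tested.

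Among the tissue cells, the median log2 fold change was 0.01 for 7 epithelial genes, 0.18 for 8 adenoma genes, -0.39 for 7 enterocyte genes, 0.29 for 6 fibroblast genes, 0.04 for 5 endothelial genes and 0.36 for 5 smooth muscle genes. The 3 most abundant genes were *Krt8*, *Krt19* and *Epcam* of epithelium, *Notum*, *Nkd1* and *Cd44* of adenoma cells, and *Apoa1*, *Apoa4* and *Fabp2* of enterocytes. They were *Dcn*, *Col3a1* and *Col1a1* of fibroblasts, *Pecam1*, *Cdh5* and *Emcn* of endothelium, and *Acta2*, *Actg2* and *Des* of smooth muscle. Without QC6 these medians were -0.13, -0.05, 0.04, 0.13, -0.16 and 0.52. The fibroblast list held 2 genes whose groups did not overlap, *Dcn* (81.9 to 110 FPKM in WT and 116 to 173 FPKM in PC del) and *Pdgfra* (7.40 to 9.14 FPKM in WT and 10.9 to 15.3 FPKM in PC del). Over all genes tested, the groups did not overlap for 6.00% higher in PC del and 1.54% lower. The 6 fibroblast genes summed to 250, 277 and 185 FPKM in QC4, QC5 and QC6, against 377, 352 and 235 FPKM in QC3, QC8 and QC10. Whether the share of stroma in a polyp bears on the phagocyte genes was not tested.

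The genes whose profile over the 6 libraries lay nearest to the mean profile of the 4 neutrophil genes were *Rere*, *Lsm10*, *Zfp931*, *Lrg1* and *Chad*. The measure was the root mean square difference of the centred log2(FPKM + 1) values, which was 0.138 for *Rere* and 0.199 for *Chad*, beside 0.582 for the neutrophil profile against a flat one. *Rere* measured 26.5, 15.4 and 10.9 FPKM in QC4, QC5 and QC6, and 22.7, 25.5 and 13.3 FPKM in QC3, QC8 and QC10. The nearest to *S100a8* alone were *Ighv1-77*, *Capn6* and *Lsm10*, at 0.291, 0.335 and 0.346, and *S100a9* was not among the 3. The nearest to the mean profile of the macrophage genes were *Sf3b1*, *2310035C23Rik*, *Sptlc2*, *Rabgap1* and *Clasp1*, at 0.0261 to 0.0467, beside 0.157 for that profile against a flat one. Of the 10 genes named for the mean profiles, *Lrg1* was the only one on a list of phagocyte genes used here.

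The neutrophil genes lie on 3 chromosomes. *S100a8* (90668978 to 90670035, plus strand) and *S100a9* (90692632 to 90695721, minus strand) are neighbours on chromosome 3, *Csf3r* (126024550 to 126044440) lies on chromosome 4 and *Il1b* (129364570 to 129371139) on chromosome 2, in GRCm38. *S100a8*, *S100a9*, *Il1b* and the macrophage genes *Adgre1*, *Cd68*, *Mrc1* and *C1qa* shared 0% of their 31-base words with transcripts of other genes. *Csf3r* shared 19.9% of them with *AC105061.2* and *Csf1r* shared 14.6% with *Hmgxb3*, so part of their reads can be assigned to either gene.

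Because the 4 neutrophil genes ranked the libraries alike, the 250 bases before each RefSeq start (GRCm38.p6) were searched for sequence motifs. The RefSeq start of *S100a8* and the 1 used for *Csf3r* lie inside the positions above, so the last 93 and 109 bases of their windows are exon in GENCODE M21, and these 2 sequences are not shown. The motifs, on either strand, were TTGCNNAA for C/EBP factors and GAGGAA for PU.1, regulators of myeloid genes, and TATAAA for the TATA box. Of 32851 promoters, 9.56%, 23.3% and 12.4% held them. The sequences of the other 2 are given, to show what the search covered, 5′ to 3′ on the strand of the gene, with the matches in capitals.
*S100a9*, chr3:90695722-90695971, minus strand: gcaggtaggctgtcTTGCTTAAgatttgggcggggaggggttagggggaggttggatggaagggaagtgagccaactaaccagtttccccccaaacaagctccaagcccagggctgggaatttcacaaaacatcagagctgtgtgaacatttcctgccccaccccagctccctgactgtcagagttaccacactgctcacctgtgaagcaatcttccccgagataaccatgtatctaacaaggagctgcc
*Il1b*, chr2:129371140-129371389, minus strand: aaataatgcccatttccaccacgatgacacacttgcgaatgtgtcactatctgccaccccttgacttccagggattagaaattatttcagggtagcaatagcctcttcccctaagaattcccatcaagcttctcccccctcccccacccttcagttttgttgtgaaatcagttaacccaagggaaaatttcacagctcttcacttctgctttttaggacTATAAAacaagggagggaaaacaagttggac

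No motif was found in all 4 windows. *S100a8* held 2 PU.1 matches, which begin 170 and 36 bases before the RefSeq start, and a TATA box at 30 bases, directly after the second of them. *S100a9* held 1 C/EBP match at 236 bases, *Csf3r* held 1 PU.1 match at 86 bases and *Il1b* held 1 TATA box at 31 bases. The *S100a8* matches at 36 and 30 bases and the *Csf3r* match lie in the parts of these windows that are exon in GENCODE M21. Of the macrophage genes, the promoters of *Itgam*, *Cd68* and *Mrc1* were searched, and those of *Adgre1*, *Csf1r* and *C1qa* were not used here. The 3 searched all held PU.1 letters, 1 (*Cd68*) held the C/EBP letters and 0 held the TATA box. A match is a description of the letters in the window, and binding was not measured.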

How the data were processed

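RNA was extracted from adenoma polyps, libraries were made with the TruSeq RNA kit and sequenced on an Illumina HiSeq2500, and the methods name CLC Genomics Workbench 7 and a two-step MatLab normalization; neither was repeated, because their settings are not given. The authors deposited, per gene and library, FPKM, scaled for transcript length and library size. TPM, which adds up to 1000000 in a library, was deposited too, as was coverage, the unscaled mean read depth over a gene (deposited by the authors). Which program and annotation lie behind these tables is not given in the sources used here; 99.96% of the 48058 gene identifiers found in GENCODE M21 overlapped its GRCm38 positions.

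Entries of a gene were summed, including both named *Itgam*. Genes averaging 1 FPKM or more were fitted as log2(FPKM + 1), which understates changes of low genes, with limma 3.58.1 in R 4.3.3 (lmFit, eBayes with trend) and Benjamini-Hochberg adjustment over all 14240 genes at a threshold of 0.05. The fit was tested on simulated data, but no outcome of that test is given here and no result rests on it. For each member an exact permutation p, two-sided, was computed over the 6 libraries. Lists were described by counts and medians, without a test. Depth was the highest ratio of coverage to FPKM in a library. Read counts were not used here, so counting intervals were not derived.

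The members and lists were chosen with earlier results of these data known. All members were named, and from the lists (other neutrophil and macrophage genes, shared myeloid genes, partners of the members, attractants, and other cell types) the 3 most abundant genes, partners of the members, defining markers at or near 0, genes at an unadjusted p under 0.05 and genes whose groups do not overlap; the genes nearest in profile were the first 5 for each mean profile and the first 3 for *S100a8*. Of the genes this rule selects, 2 are not reported here. Sequence sharing was counted in words of 31 bases over GENCODE M21 transcripts. Alternatives were TPM in place of FPKM, quantile normalization, median centring of the libraries, array quality weights, a pseudocount of 0.1, eBayes with no trend, a filter at 5 FPKM or none, and omission of single libraries. Chosen after seeing the data were *Itgam* by its main entry alone, the centred macrophage mean and the counts of genes whose groups do not overlap under the alternatives.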

Additional observations from a re-analysis of the deposited data

How the results depend on the processing

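Without read counts the counting error of low values, such as those of *Csf3r* and *S100a8*, could not be derived. None of the 10 genes passed the adjusted threshold under any alternative in which it was tested (limma adjusted p between 0.418 and 1). These were 135 values, 1 for each gene and alternative, all from the same 6 libraries and so not independent checks. Of these values, 127 kept the direction and 8 did not, each of the 8 with a library left out. Omitting 1 library at a time gave log2 fold changes of -0.20 to 0.76 for *S100a8*, -0.37 to 0.69 for *S100a9*, -0.13 to 0.37 for *Csf3r* and -0.03 to 0.18 for *Cd68*. The other 6 genes kept their direction. Adding 0.1 in place of 1 to FPKM gave *Csf3r* 0.28, the neutrophil median 0.27 and neutrophil minus macrophage -0.01. With array quality weights *S100a8* was at 0.43, *Itgam* and *Cd68* at 0.03 and *Mrc1* at 0.21. *S100a9* and *Cd68* were at 0.01 and 0.02 with quantile normalization, and at 0.02 and 0.04 with median centring. The neutrophil median ran from -0.13 to 0.67, and neutrophil minus macrophage from -0.40 to 0.39; that difference was also 0.39 with a minimum mean FPKM of 5, where 1 neutrophil and 3 macrophage genes remained, and 0.00 with array quality weights. The macrophage median kept its direction throughout. With the main *Itgam* entry alone it was 0.30, and neutrophil minus macrophage was -0.16.

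The count of genes past the adjusted threshold, 2, was 1 without a filter, 1 with centring and 3 with array quality weights; it was 5 without QC4, 2 without QC6 and 1 without QC5, QC3, QC8 or QC10 in turn. The 481 genes at an unadjusted p under 0.05 became 976 without a filter, where 27207 genes were tested, 260 with a minimum of 5, where 9837 were, 1270 with array quality weights and 359 to 820 with a library left out. In alternatives chosen after seeing the data, the 854 genes higher and 219 lower with groups that do not overlap became 559 and 530 with centring, 532 and 475 with quantile normalization, and 1617 and 1753 without QC6, against 1330 to 2232 and 409 to 669 without 1 of the other libraries. With a library left out, groups that are apart stay apart, so the counts of genes without overlap can only rise. Why they rose by different amounts was not tested. For the other changes, except the smaller lists at a minimum of 5, the cause was not tested either. The genotypes could not be paired, since no label links a WT library to a PC del one.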
